A study of Mus musculus with 25 samples.

Results

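Chromatin accessibility after Neurog2 overexpression was compared between astrocytes grown with bFGF alone and astrocytes grown with EGF+bFGF. The comparison took the 12 of 25 ATAC-seq libraries whose cells carried a Neurog2 virus, namely 6 libraries from bFGF culture (3 Neurog2, 3 Neurog2+Hmgb2) and 6 from EGF+bFGF culture (3 Neurog2, 3 Neurog2+Hmgb2), chosen by their labels. The other 13 libraries, from cells given a Control or an Hmgb2 virus, served only to ask whether the same difference was seen without Neurog2. All cells were primary astrocyte cultures of cerebral cortex (grey matter by the labels) from wild-type C57BL/6J mice at postnatal day 5 to 6, grown for 10 days in medium with serum and 10 ng/ml bFGF, with or without 10 ng/ml EGF, then transduced with retroviruses and sorted by fluorophore 48 h later. Retroviruses of this type enter the genome of dividing cells only, so each library describes cells that were dividing at transduction and carried the virus. The labels do not say whether replicate libraries came from separate mice or litters, and p-values measure the spread between libraries, which may be technical.

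Neurog2 is a basic helix-loop-helix factor of the developing cortex that drives neuronal differentiation. It dimerizes with E proteins, binds E-boxes such as CAGATG, and can open closed chromatin, which is why it is used to turn astrocytes into neurons. Hmgb2 belongs to the HMGB family, abundant chromatin proteins that bend DNA with little sequence preference. EGF and bFGF (Fgf2) both signal through receptor tyrosine kinases to the MAPK cascade, whose nuclear outputs include AP-1, the dimers of Fos and Jun proteins. In the study, Neurog2 in bFGF culture was the condition that resists conversion, while Neurog2 in EGF+bFGF culture and Neurog2+Hmgb2 in bFGF culture were conditions that convert. The bFGF libraries compared here thus hold both kinds, and the question is where chromatin differed between the cultures once Neurog2 was present, whichever virus carried it.

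Accessibility is given as the deposited regularized log2 signal of a peak, so that 1 unit is a 2-fold difference of that signal, and a difference is always bFGF minus EGF+bFGF. Of 45672 peaks, 45642 were tested, after 1 mitochondrial peak, 1 peak holding Neurog2 coding sequence and 28 peaks holding Hmgb2 coding sequence were set aside, because the viruses carry those sequences. The sequences below are from called sites picked because they hold the E-box CAGATG, so they do not stand for all sites at which the cultures differed. Each is the central 200 bases of a peak, read 5′ to 3′ on the plus strand of mm10, with CAGATG or its reverse complement CATCTG in capitals. This E-box was chosen because its share among the less accessible sites stood furthest from its share among all peaks. At 3 sites with a higher signal in bFGF, the peak nearest Plekha5 lay in an intron of that gene, and the peaks nearest Zfp507 and Nox3 were intergenic. These 2 lay 293 kb and 503 kb from the starts of Zfp507 and Nox3, so the names are labels of position only.

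Plekha5, chr6:140487668-140487867: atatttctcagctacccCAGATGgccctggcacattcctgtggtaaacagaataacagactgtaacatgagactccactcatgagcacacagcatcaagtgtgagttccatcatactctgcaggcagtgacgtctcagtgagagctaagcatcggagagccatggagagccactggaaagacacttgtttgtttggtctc
Zfp507, chr7:36095594-36095793: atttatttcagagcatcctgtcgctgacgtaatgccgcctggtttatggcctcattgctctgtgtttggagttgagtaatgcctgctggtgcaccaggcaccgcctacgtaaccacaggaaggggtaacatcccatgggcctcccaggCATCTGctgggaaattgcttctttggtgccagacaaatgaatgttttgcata
Nox3, chr17:4199623-4199822: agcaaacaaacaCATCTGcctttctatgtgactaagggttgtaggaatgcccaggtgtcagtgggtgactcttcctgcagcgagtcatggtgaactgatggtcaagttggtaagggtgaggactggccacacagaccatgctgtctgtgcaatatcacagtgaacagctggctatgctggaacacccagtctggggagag

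At 3 sites with a lower signal in bFGF, all in introns, 2 peaks lay in Spsb4, at 29.1 kb and 7.2 kb from its start, and 1 in Ptprn2.

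Spsb4 (distal peak), chr9:96989626-96989825: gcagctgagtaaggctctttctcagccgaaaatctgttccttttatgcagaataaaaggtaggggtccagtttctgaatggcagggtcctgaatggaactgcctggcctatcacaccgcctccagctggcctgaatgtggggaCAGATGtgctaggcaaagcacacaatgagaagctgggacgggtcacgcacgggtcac
Ptprn2, chr12:116919963-116920162: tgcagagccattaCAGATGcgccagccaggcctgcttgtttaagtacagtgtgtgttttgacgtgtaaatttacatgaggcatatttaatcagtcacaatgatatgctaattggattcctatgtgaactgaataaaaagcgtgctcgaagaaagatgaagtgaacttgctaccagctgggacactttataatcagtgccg
Spsb4 (proximal peak), chr9:97011541-97011740: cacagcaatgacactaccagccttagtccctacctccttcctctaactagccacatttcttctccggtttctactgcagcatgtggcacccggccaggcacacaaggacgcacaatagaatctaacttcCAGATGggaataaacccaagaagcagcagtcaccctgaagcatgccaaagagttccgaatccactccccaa

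The Plekha5 and Zfp507 windows also held the RUNX letters TGTGGT, which none of the 3 windows of less accessible sites did. The distal Spsb4 window and the Ptprn2 window held a second kind of E-box, CAGCTG, as did the Nox3 window.

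Before the comparison, the libraries themselves were examined. Median signals were alike in all 12, at 4.56 to 4.67 log2 units. On the first principal component, which took 36.3% of the variance, bFGF Neurog2 replicate 2 stood apart at 85.1, against -12.9 to 27.0 for the other 5 bFGF libraries and -34.8 to -1.6 for the 6 EGF+bFGF libraries. Its mean correlation with the other libraries of its group was 0.935, the lowest of the 12. The peak over the Neurog2 exon, which reads the virus as well as the gene, was at 15.9, 10.6 and 13.0 in bFGF Neurog2, 15.0, 14.7 and 11.8 in bFGF Neurog2+Hmgb2, 13.8, 15.6 and 12.2 in EGF+bFGF Neurog2 and 13.3, 16.1 and 14.6 in EGF+bFGF Neurog2+Hmgb2. The lowest of these 12 values was again that of bFGF Neurog2 replicate 2, and its part in the results was not tested beyond the fits given here. The 28 peaks with Hmgb2 sequence averaged 6.67 to 7.88 in the libraries given Neurog2+Hmgb2 and 5.66 to 6.11 in those given Neurog2 alone, so the labels of the second virus held in every library. Of 8 defining astrocyte markers, 7 had a promoter peak, all but S100b, with a mean signal of 5.44 to 5.92 in bFGF and 5.83 to 6.12 in EGF+bFGF libraries.

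In the 12 libraries, with virus as a covariate, the cultures differed little. A single peak, in an intron of Plekha5, passed an adjusted p of 0.05 as more accessible in bFGF (0.00219% of the peaks tested) and none as less accessible (0%), by limma with Benjamini-Hochberg adjustment. No peak was both past this threshold and over 2-fold, as the study's methods require of a more accessible site (MAS) or a less accessible site (LAS). The study took its fold change from counts with DESeq2, whereas the regularized values used here shrink weak peaks toward their mean. The 2-fold limit is therefore not the same measure in both. At an unadjusted p of 0.05, however, 8235 peaks (18.0%) passed. The differences were small in size: from the 1st to the 99th percentile they ran from -0.45 to 0.56, only 4 peaks exceeded 1 in size, and the median standard error was 0.13.

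Plekha5 encodes an adaptor protein with a pleckstrin homology domain. Its intronic peak (chr6:140487478-140488056) had a signal of 5.01, 5.44 and 5.18 in bFGF Neurog2 and 5.27, 4.90 and 5.21 in bFGF Neurog2+Hmgb2, against 4.02, 4.09 and 4.38 in EGF+bFGF Neurog2 and 4.25, 4.47 and 4.41 in EGF+bFGF Neurog2+Hmgb2. All 6 bFGF libraries lay above all 6 EGF+bFGF libraries. The difference was 0.90 ± 0.12 (SE of the 12-library fit; adjusted p = 0.015, limma), and it was 1.05 with Neurog2 and 0.75 with Neurog2+Hmgb2. Without bFGF Neurog2 replicate 2 it was 0.83 (adjusted p = 0.0155), whereas leaving out any of 6 other libraries, 3 of each culture, raised the adjusted p to between 0.0603 and 0.0949 (EGF+bFGF Neurog2 replicates 1 and 2, EGF+bFGF Neurog2+Hmgb2 replicate 1, bFGF Neurog2 replicate 3, bFGF Neurog2+Hmgb2 replicates 1 and 3). In cells without Neurog2 the same peak differed by 0.29 ± 0.16 (adjusted p = 0.755).

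When all 25 libraries entered one fit of 8 group means, which leaves 17 instead of 9 degrees of freedom for the spread, the same contrast called 171 peaks higher in bFGF (0.375% of those tested) and 91 lower (0.199%). These 262 sites describe the culture difference below. The larger number rests on the spread measured in cells without Neurog2 as well, and it rests on single libraries. Without bFGF Neurog2 replicate 2, none of the 45642 peaks passed in the 25-library fit (smallest adjusted p = 0.0574, with 4449 at an unadjusted p of 0.05), and 8 higher and 0 lower passed in the 12-library fit, 4 of the 8 among the 171. Without bFGF Neurog2 replicate 1, by contrast, 1815 were higher and 1115 lower in the 25-library fit, and 824 and 386 in the 12-library fit. Without bFGF Neurog2+Hmgb2 replicate 2, the counts were 680 and 336 in the 25-library fit and 570 and 252 in the 12-library fit, and without bFGF Neurog2 replicate 3 they were 350 and 201 in the 25-library fit. Leaving out another library lowered the 25-library counts, to 0 without bFGF Neurog2+Hmgb2 replicate 3 or EGF+bFGF Neurog2 replicate 1, 1 without bFGF Neurog2+Hmgb2 replicate 1, 5 and 4 without replicate 2 of EGF+bFGF Neurog2 and of EGF+bFGF Neurog2+Hmgb2, 18 and 104 without EGF+bFGF Neurog2+Hmgb2 replicates 3 and 1, and 140 without EGF+bFGF Neurog2 replicate 3. Of all peaks, 320 (0.701%) lay higher in all 6 bFGF libraries than in any of the 6 EGF+bFGF libraries and 198 (0.434%) lower. Of the called sites 89 of the 171 and 42 of the 91 did so, shares largely fixed by choosing them on these same libraries. The differences of the 171 ran from 0.39 to 1.02 and those of the 91 from -0.79 to -0.43. In the values that follow, the errors of called sites are from the 25-library fit.

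The named sites with a higher signal in bFGF were mostly intronic or intergenic. A peak 14.5 kb from Sdk2, an immunoglobulin superfamily adhesion protein of synapses, had 4.38, 5.76 and 4.63 in bFGF Neurog2 and 5.23, 4.51 and 5.26 in bFGF Neurog2+Hmgb2, against 3.87, 4.13 and 4.03 in EGF+bFGF Neurog2 and 3.70, 4.29 and 4.17 in EGF+bFGF Neurog2+Hmgb2 (difference 0.93 ± 0.21). The groups did not overlap, and bFGF Neurog2 replicate 2 was the highest. An intronic peak of Cdh4, which encodes R-cadherin, had 5.11, 5.91 and 5.07 in bFGF Neurog2 and 5.51, 4.95 and 5.27 in bFGF Neurog2+Hmgb2, against 4.49, 4.58 and 4.44 in EGF+bFGF Neurog2 and 4.08, 4.62 and 4.46 in EGF+bFGF Neurog2+Hmgb2. Here the difference was 0.86 ± 0.16, and it was 0.86 with either virus. A peak 32.0 kb from Vipr2, the gene of a VIP and PACAP receptor, lay in an exon of the non-coding gene Gm20658 and differed by 0.86 ± 0.20, from 4.79 to 5.72 in bFGF and 4.00 to 4.74 in EGF+bFGF. In Rassf2, which encodes a Ras association domain protein, an intronic peak ran from 4.92 to 5.98 in bFGF and 4.34 to 4.80 in EGF+bFGF, with a difference of 0.80 ± 0.13 and an adjusted p of 0.015 in the 25-library fit, the smallest there together with a peak near Phc2. The remaining named sites were 298.0 kb from Dab2 (an endocytic adaptor; 0.85), 19.5 kb from Elac1 (a tRNA-processing enzyme; 0.85), and in introns of Rbm47 (an RNA-binding protein; 0.84) and Abcc4 (an efflux transporter; 0.83). In the 12-library fit, the adjusted p of these 8 sites was 0.0713 to 0.075.

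**Figure D1:**
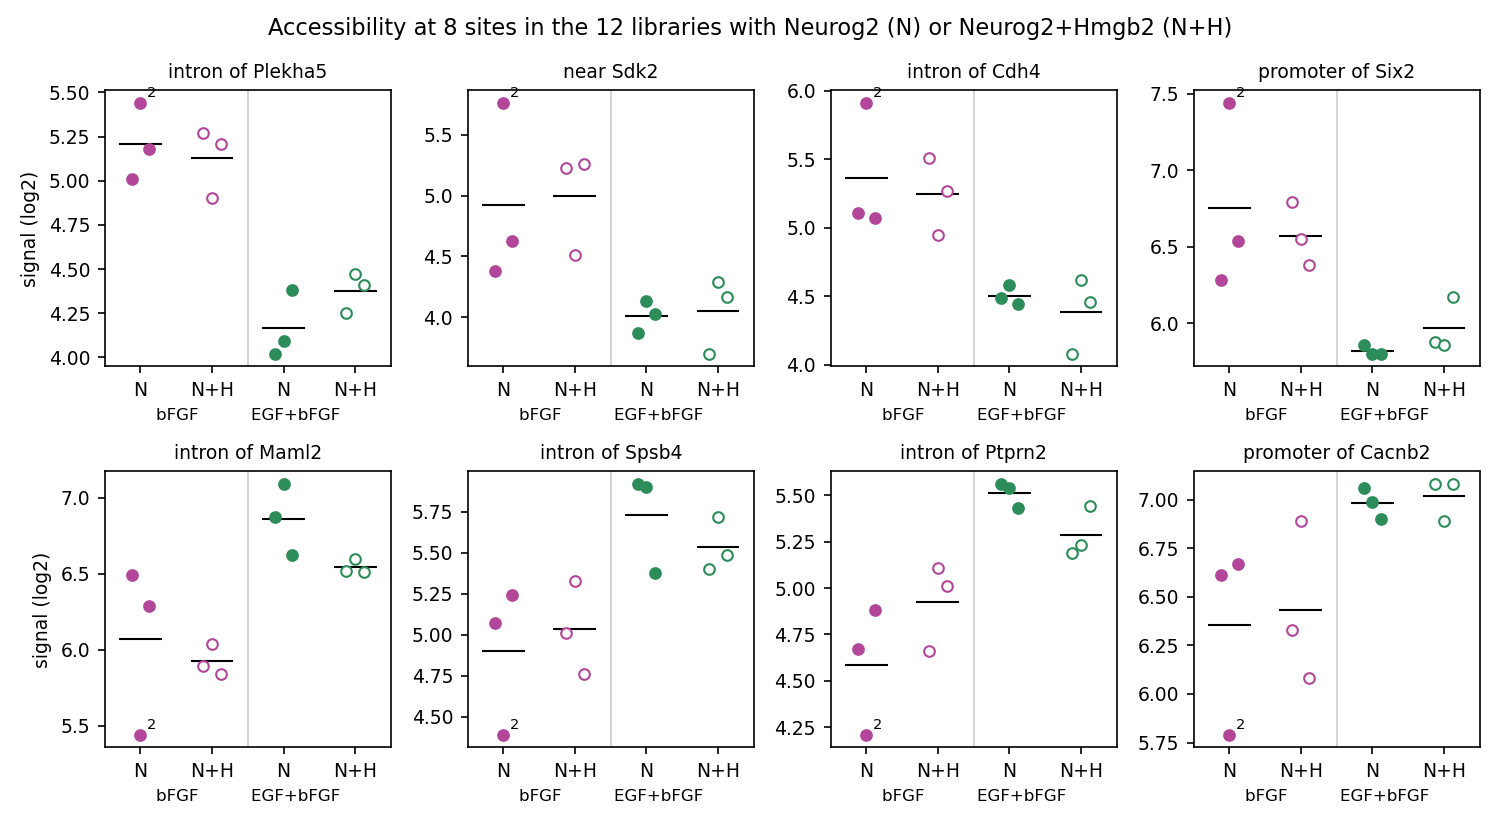
Signal (log2, vertical axis) at 8 named sites in each of the 12 libraries with Neurog2 (N, filled) or Neurog2+Hmgb2 (N+H, open), with bFGF left of EGF+bFGF in each panel. Points are libraries, bars are group means, and the point marked 2 is bFGF Neurog2 replicate 2, which was highest at the 4 upper sites and lowest at the 4 lower sites, while the cultures did not overlap at any of the 8.

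The named sites with a lower signal in bFGF included a Notch gene. An intronic peak of Maml2, a coactivator of Notch-dependent transcription, had 6.49, 5.44 and 6.29 in bFGF Neurog2 and 5.89, 6.04 and 5.84 in bFGF Neurog2+Hmgb2, against 6.87, 7.09 and 6.62 in EGF+bFGF Neurog2 and 6.52, 6.60 and 6.51 in EGF+bFGF Neurog2+Hmgb2. The highest bFGF library was just below the lowest EGF+bFGF library. The difference was -0.70 ± 0.13 (adjusted p = 0.0232 over 25 libraries, 0.0713 over 12), and -0.17 ± 0.12 in cells without Neurog2 (adjusted p = 0.796).

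Spsb4 encodes a SOCS box protein that presents substrates for ubiquitination, and both of its printed sites were called. The distal one had 5.07, 4.39 and 5.24 in bFGF Neurog2 and 5.01, 5.33 and 4.76 in bFGF Neurog2+Hmgb2, against 5.92, 5.90 and 5.38 in EGF+bFGF Neurog2 and 5.40, 5.72 and 5.49 in EGF+bFGF Neurog2+Hmgb2 (difference -0.67 ± 0.14). The proximal one differed by -0.63 ± 0.12. In cells without Neurog2, the distal site differed by 0.04 ± 0.14 and the proximal one by -0.11 ± 0.12.

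Ptprn2 encodes a tyrosine phosphatase-like protein of secretory granules in neuroendocrine cells. Its intronic site, shown above, had 4.67, 4.21 and 4.88 in bFGF Neurog2 and 4.66, 5.11 and 5.01 in bFGF Neurog2+Hmgb2, against 5.56, 5.54 and 5.43 in EGF+bFGF Neurog2 and 5.19, 5.23 and 5.44 in EGF+bFGF Neurog2+Hmgb2. The groups were close but did not overlap, and the difference was -0.92 with Neurog2 and -0.36 with Neurog2+Hmgb2. An intergenic peak 36.8 kb from Slc6a11, the gene of an astrocytic GABA transporter, ran from 4.57 to 5.22 in bFGF and 5.33 to 5.86 in EGF+bFGF (-0.62 ± 0.15). The other named sites with a lower signal were in introns of Phactr2 (-0.66), Dpyd (-0.62) and Cdk14 (-0.62), 103.0 kb from Tut7 (-0.65), in a UTR exon of D1Ertd622e (-0.63) and at the promoter of Cacnb2 (-0.61). Phactr2 regulates protein phosphatase 1 and actin, Dpyd degrades pyrimidines, Cdk14 is a cyclin-dependent kinase, and Tut7 adds uridines to RNA.

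Promoters, here peaks within 3 kb of the transcription start of a gene, were a small part of the difference. Of the 171 sites higher in bFGF 5.26% were promoters, of the 91 lower sites 4.40%, and of all tested peaks 32.6%. Introns and other gene-body sites made up 50.9% and 54.9%, against 37.1% of all peaks. The higher sites were also weaker and poorer in GC than peaks in general, with a median signal of 3.67 and 46.2% GC, against 4.59 and 51.9% over all peaks, and the lower sites were longer, with a median length of 640 bp against 511 bp. Across peaks, the culture difference had a correlation of -0.18 with GC content and -0.12 with log2 width, given as a description, and the part of base composition in the calls was not tested beyond the adjusted fit in the closing section.

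Among the promoters called higher in bFGF, that of Six2, a homeobox gene of mesenchymal progenitors, had the largest difference. It was at 6.28, 7.44 and 6.54 in bFGF Neurog2 and 6.79, 6.55 and 6.38 in bFGF Neurog2+Hmgb2, against 5.86, 5.80 and 5.80 in EGF+bFGF Neurog2 and 5.88, 5.86 and 6.17 in EGF+bFGF Neurog2+Hmgb2. The groups did not overlap, and the difference was 0.77 ± 0.15 (adjusted p = 0.026 over 25 libraries, 0.0713 over 12) and 0.47 ± 0.14 in cells without Neurog2 (adjusted p = 0.639). The promoter peaks next to Phc2, a Polycomb group gene (0.72), C130073F10Rik (0.66), Lrrc17 (0.60) and Xrcc5, which encodes the Ku80 subunit of DNA repair (0.56), were also higher in the 25-library fit. In the other direction, the promoter of Cacnb2, a voltage-gated calcium channel subunit, had 6.61, 5.79 and 6.67 in bFGF Neurog2 and 6.33, 6.89 and 6.08 in bFGF Neurog2+Hmgb2, against 7.06, 6.99 and 6.90 in EGF+bFGF Neurog2 and 7.08, 6.89 and 7.08 in EGF+bFGF Neurog2+Hmgb2. The bFGF libraries were the more variable (SD 0.41 against 0.09, n = 6 each), and the nearest libraries of the 2 cultures were equal to 2 decimals, at 6.89, although they did not overlap. The promoter of Jam2, a junctional adhesion molecule, was at 6.47 to 7.13 in bFGF and 7.20 to 7.65 in EGF+bFGF (-0.51 ± 0.12).

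The next question was whether the difference held within each virus. With Neurog2 alone, no peak passed (0%; smallest adjusted p = 0.0866, 7195 at an unadjusted p of 0.05), and with Neurog2+Hmgb2 none passed either (0%; smallest adjusted p = 0.967, 2042 at an unadjusted p of 0.05). Each within-virus contrast compares 3 libraries with 3, and its median standard error with Neurog2 was 0.18. The called sites were chosen on the mean of these 2 contrasts in the same libraries, which largely fixes their signs, sizes and separation within each virus, so the values that follow describe them and do not show that the difference held within a virus. All 171 higher sites had a difference above 0 with Neurog2 and with Neurog2+Hmgb2, and all 91 lower sites a difference below 0 with both. The median difference of the 171 was 0.72 with Neurog2 and 0.52 with Neurog2+Hmgb2, and that of the 91 was -0.74 and -0.40. Of the 171, 155 did not overlap between cultures with Neurog2 (8.68% of all peaks were higher without overlap) and 125 with Neurog2+Hmgb2 (6.06%). Of the 91, 87 did so with Neurog2 (8.93%) and 59 with Neurog2+Hmgb2 (5.45%). Without bFGF Neurog2 replicate 2 all 262 sites kept their sign, with medians of 0.51 and -0.48. The choice of the sites with that library in the fit largely fixes this as well. It does not show that the difference held without that library.

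**Figure D2:**
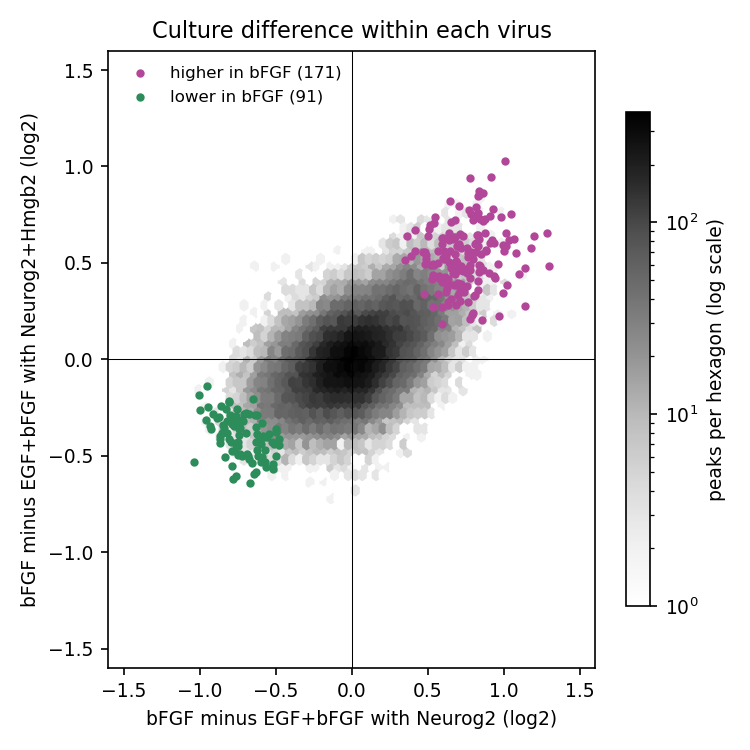
Culture difference (bFGF minus EGF+bFGF, log2) with Neurog2 on the horizontal axis and with Neurog2+Hmgb2 on the vertical axis, with all 45642 peaks as hexagons shaded by number on a log scale. The 171 sites called higher (magenta) and the 91 called lower (green) over 25 libraries lie in the upper right and the lower left, and they lie further from 0 on the Neurog2 axis, with medians of 0.72 and -0.74, than on the Neurog2+Hmgb2 axis, with medians of 0.52 and -0.40.

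Although these medians were smaller with Neurog2+Hmgb2, the difference between the viruses itself passed at no peak (0%; smallest adjusted p = 0.79, 1320 at an unadjusted p of 0.05, limma interaction term). The peaks with the smallest p in this test changed direction between the viruses. In an intron of Dab2 (chr15:6316860-6317000), the signal was 4.85, 4.78 and 5.11 in bFGF and 6.20, 6.57 and 6.81 in EGF+bFGF with Neurog2, and 5.17, 5.58 and 5.94 in bFGF and 4.71, 5.16 and 5.87 in EGF+bFGF with Neurog2+Hmgb2. The cultures were apart with Neurog2 (-1.61 ± 0.24) and overlapped with Neurog2+Hmgb2 (0.32 ± 0.24), and the interaction was 1.93 ± 0.34 (adjusted p = 0.79). Next came introns of Ppp1r9a, which encodes the synaptic scaffold neurabin (1.15 ± 0.26), Fyb, an immune-cell adaptor (-1.09 ± 0.25), Pde7b, a cAMP phosphodiesterase (1.15 ± 0.28), and Csmd1, a complement regulator (0.81 ± 0.20), each with an adjusted p of 1.

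In cells without Neurog2, that is with Control or Hmgb2 viruses, the 13 libraries gave no peak past the threshold either (0%; smallest adjusted p = 0.365, 3185 at an unadjusted p of 0.05). These libraries are separate from the 12, although they share the 25-library estimate of spread. The 171 higher sites had a median difference of 0.16 there, and 159 of them lay above 0, whereas the 91 lower sites had a median of -0.08, with 62 below 0. Of all 45642 tested peaks, 23881 lay above 0 in these cells and 21761 below 0. Over all peaks, the culture differences with and without Neurog2 had a correlation of 0.38, given as a description. The test of the culture effect with minus without Neurog2 passed at no peak (0%; smallest adjusted p = 0.514, 2920 at an unadjusted p of 0.05).

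The average over the 91 lower sites separated the groups by level. It was 5.10, 4.65 and 5.02 in bFGF Neurog2 and 4.98, 5.18 and 4.98 in bFGF Neurog2+Hmgb2, against 5.68, 5.73 and 5.53 in EGF+bFGF Neurog2 and 5.29, 5.48 and 5.57 in EGF+bFGF Neurog2+Hmgb2. Libraries without Neurog2 lay between 4.91 and 5.08 in bFGF and between 4.94 and 5.13 in EGF+bFGF. Thus the EGF+bFGF libraries with Neurog2 lay above all others at these sites, while 5 of the 6 bFGF libraries with Neurog2 lay between 4.98 and 5.18. The average over the 171 higher sites was 3.75, 4.47 and 3.95 in bFGF Neurog2 and 4.09, 3.63 and 3.92 in bFGF Neurog2+Hmgb2, against 3.25 to 3.41 in the 6 EGF+bFGF libraries with Neurog2. Without Neurog2 it was 3.40 to 3.79 in bFGF and 3.32 to 3.66 in EGF+bFGF. These averages describe sites chosen by the contrast in the cells with Neurog2 and carry no test.

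**Figure D3:**
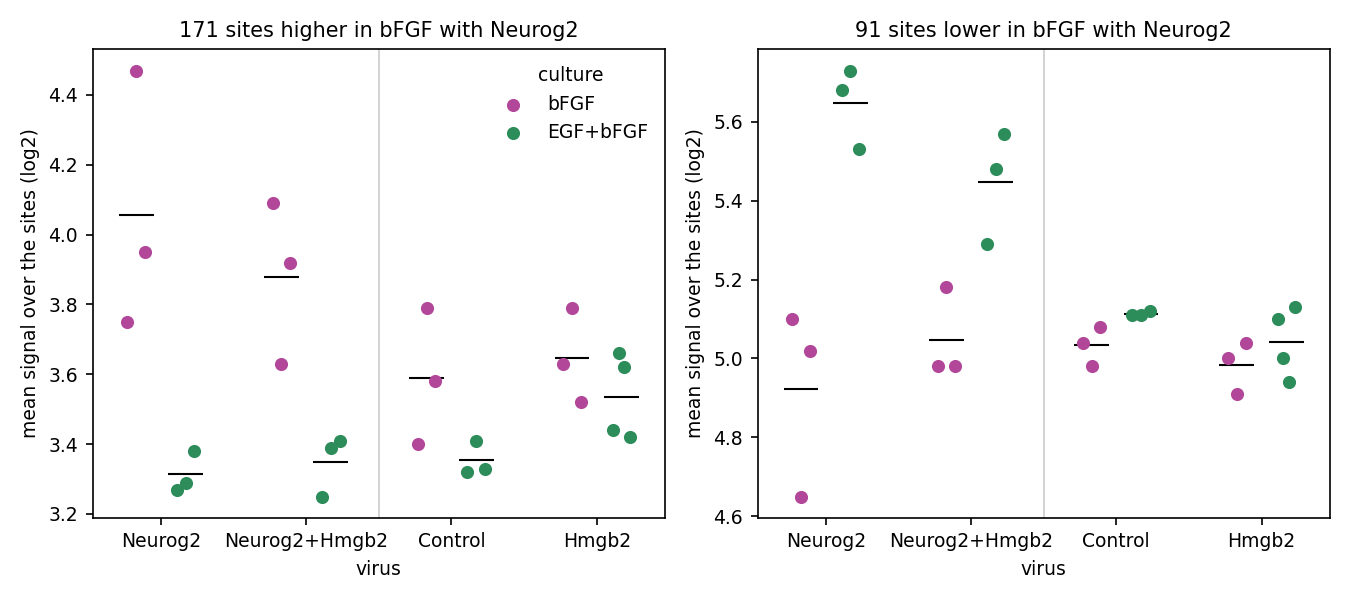
Mean signal (log2, vertical axis) over the 171 sites called higher and the 91 called lower in bFGF with Neurog2, by virus, for all 25 libraries, with bFGF (magenta) left of EGF+bFGF (green) within each virus. Points are libraries and bars are group means, and at the 91 lower sites the EGF+bFGF libraries with Neurog2 (5.29 to 5.73) lie above the libraries without Neurog2 (4.91 to 5.13).

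The peaks with the smallest p for the effect with minus without Neurog2 had differences that pointed one way with Neurog2 and were near 0 or opposite without it. The Ptprn2 site shown above differed by -0.64 ± 0.13 with Neurog2 and 0.20 ± 0.12 without it. A peak 12.7 kb from Gm45623 differed by 0.66 ± 0.13 and -0.25 ± 0.13, and an intronic peak of Mrps28, a mitochondrial ribosomal protein, by -0.59 ± 0.14 and 0.37 ± 0.14. The same order held for a peak in an intron of Sh3rf1 nearest Cbr4 (-0.45 ± 0.12 and 0.33 ± 0.11) and for Phc2 (0.72 ± 0.12 and -0.04 ± 0.11). The test of the difference gave adjusted p of 0.514 to 0.57 at these 5 peaks.

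Sequence letters were counted in the higher and lower sites. The AP-1 letters TGANTCA, searched like all motifs on both strands of the central 200 bases, stood in 32.7% of the 171 higher sites (Wilson 95% interval 26.2 to 40.1%), in 11.0% of the 91 lower sites (6.08 to 19.1%) and in 21.1% of all peaks. The RUNX letters TGTGGT stood in 31.6% (25.1 to 38.9%) of the higher sites, 12.1% (6.89 to 20.4%) of the lower sites and 14.4% of all peaks. The E-box CAGATG, in contrast, was frequent in both directions, in 36.8% (30.0 to 44.3%) of the higher and 42.9% (33.2 to 53.1%) of the lower sites, against 18.7% of all peaks. The E-box CAGCTG stood in 23.4%, 27.5% and 17.9% of the 3 sets in the same order, the TEAD letters CATTCC in 18.1%, 14.3% and 14.9%, the homeobox letters TAATTA in 2.34%, 8.79% and 3.38%, and the GC box GGGCGGGG in 3.51%, 2.20% and 7.39%. Since few of the sites are promoters, the share among peaks outside promoters is the closer background, and it was 28.4% for AP-1, 17.7% for RUNX and 23.6% for CAGATG. The letters of the 2 E-boxes cannot overlap. The shares depend on the window. Over whole peaks, RUNX letters stood in 49.7% of the higher sites, 39.6% of the lower sites and 33.6% of all peaks, so that the lower sites were no longer below all peaks, and AP-1 letters stood in 53.2%, 27.5% and 34.4% in the same order. CAGATG stood in 61.4%, 74.7% and 39.8%, and CAGCTG in 36.8%, 59.3% and 38.3%. Whole peaks differ in length, with longer peaks among the lower sites. The intervals cover counting error only, and a match is a description of the window, not evidence of binding.

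Over all peaks, those with the AP-1 letters had a median culture difference of 0.11 with virus as a covariate, 0.19 with Neurog2, 0.04 with Neurog2+Hmgb2 and 0.02 without Neurog2, against -0.02 with virus as a covariate for peaks without the letters. Without bFGF Neurog2 replicate 2 the median was 0.07. Peaks with CAGATG had a median of 0.00 with Neurog2 viruses, like peaks without it. The promoters of 13 genes of AP-1 subunits and relatives had a median difference of 0.02, with 7 above and 6 below 0.

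**Figure D4:**
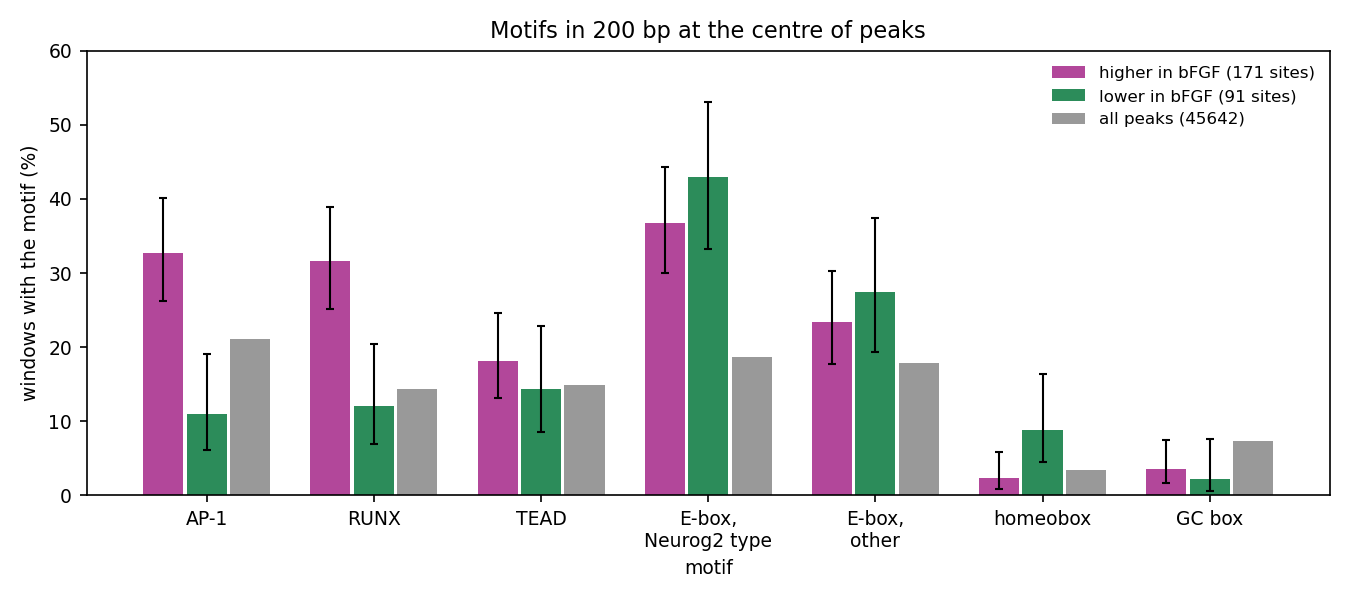
Share (%, vertical axis) of 200 bp windows at peak centres that hold each motif, among the 171 sites higher in bFGF (magenta), the 91 lower (green) and all 45642 peaks (grey). Whiskers are Wilson 95% intervals, and AP-1 (32.7% and 11.0%) and RUNX (31.6% and 12.1%) differ between the directions in these windows, while the Neurog2-type E-box (36.8% and 42.9%) is above all peaks (18.7%) in both.

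Gene lists were described through the promoter peak of each gene, with differences and errors from the 12-library fit. Over the 13390 genes with such a peak, the median difference was 0.00, none passed in the 12-library fit, 6 were higher (0.0448%) and 4 lower (0.0299%) in the 25-library fit, and 21 (0.157%) and 29 (0.217%) did not overlap between the 6 and 6 libraries. In 28 lists, Six2 was the only member called, and in every list the mean of the members overlapped between cultures library by library.

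Promoters of telencephalic identity factors had the lowest median of the 28 lists. Of 12 genes with a promoter peak 10 lay below 0, and the median was -0.22 with Neurog2 viruses, -0.12 without Neurog2 and -0.16 without bFGF Neurog2 replicate 2. Dmrta2, a cortical patterning factor, was at 7.19, 5.97 and 6.81 in bFGF Neurog2 and 6.63, 6.99 and 6.40 in bFGF Neurog2+Hmgb2, against 7.27, 7.50 and 7.05 in EGF+bFGF Neurog2 and 6.92, 7.05 and 7.21 in EGF+bFGF Neurog2+Hmgb2. The difference of -0.50 ± 0.16 did not pass (adjusted p = 0.12), and the groups overlapped. Lhx2, which keeps cortical identity, differed by -0.41 ± 0.13, Pax6, a factor of radial glia, by -0.39 ± 0.13, Nr2e1 by -0.38 ± 0.14 and Emx2 by -0.32 ± 0.11, none past the threshold.

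Astrocyte genes followed. Of 39 with a promoter peak 31 lay below 0, with a median of -0.16 with Neurog2 viruses and -0.09 without Neurog2. Gfap, the astrocyte intermediate filament, was at 5.89, 5.23 and 5.63 in bFGF Neurog2 and 5.33, 5.91 and 5.94 in bFGF Neurog2+Hmgb2, against 6.34, 6.31 and 6.14 in EGF+bFGF Neurog2 and 5.83, 5.70 and 6.19 in EGF+bFGF Neurog2+Hmgb2. The cultures were apart with Neurog2 (-0.68) and overlapped with Neurog2+Hmgb2 (-0.18), and the pooled difference of -0.43 ± 0.14 had an adjusted p of 0.133. Gja1, the gene of connexin 43, differed by -0.34 ± 0.10 (adjusted p = 0.106), Slc1a2, a glutamate transporter, by -0.31 ± 0.11, and Slc1a3, another, by 0.04 ± 0.14. Olig2, a factor of glial progenitors listed with the oligodendrocyte lineage, was at 5.32 to 6.32 in bFGF and 6.16 to 6.57 in EGF+bFGF, with -0.50 ± 0.13 (adjusted p = 0.083).

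Notch pathway promoters had a median of -0.15, with 15 of 17 below 0, and 0.02 without Neurog2. Dll1, a Notch ligand that Neurog2 induces in progenitors, was at 6.40, 6.34 and 6.72 in bFGF Neurog2 and 6.10, 6.43 and 6.13 in bFGF Neurog2+Hmgb2, against 6.77, 6.78 and 6.73 in EGF+bFGF Neurog2 and 6.61, 6.66 and 6.62 in EGF+bFGF Neurog2+Hmgb2. Only bFGF Neurog2 replicate 3 reached into the EGF+bFGF range, and the difference was -0.34 ± 0.09 (adjusted p = 0.0993) with Neurog2 viruses and 0.04 without Neurog2. Hes5, a Notch target that holds cells in the progenitor state, differed by -0.31 ± 0.13, and Hes1 by -0.08 ± 0.10.

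The core neurogenic genes named by the study include Neurod4, Insm1, Hes6, Slit1 and Sox11, which it took from earlier work as induced by Neurog2. They also include Dscaml1, Prox1, Lrp8 and Shf, whose expression it found induced by Neurog2 alone only in its EGF+bFGF culture. The list is thus in part not independent of these cultures. Of 10 genes 9 had a promoter peak, all but Dscaml1, and 7 lay below 0, with a median of -0.15 with Neurog2 viruses and 0.11 without Neurog2. Slit1, an axon guidance ligand, was at 6.41, 5.88 and 6.28 in bFGF Neurog2 and 6.28, 6.54 and 6.51 in bFGF Neurog2+Hmgb2, against 6.60, 6.74 and 6.75 in EGF+bFGF Neurog2 and 6.29, 6.75 and 6.67 in EGF+bFGF Neurog2+Hmgb2. The cultures were apart with Neurog2 and overlapped with Neurog2+Hmgb2, and the difference was -0.31 ± 0.12 (adjusted p = 0.164). Insm1, a zinc finger factor of neuronal progenitors, differed by -0.30 ± 0.12 (adjusted p = 0.194), Neurod4, a proneural target, by -0.25 ± 0.13, Prox1 by -0.16 ± 0.11, Hes6 by -0.15 ± 0.10, Gadd45g by -0.09 ± 0.12, Sox11 by -0.05 ± 0.12, Shf by 0.06 ± 0.09 and Lrp8 by 0.12 ± 0.10. Of the wider list of neurogenic transcription factors, 23 of 31 lay below 0 with a median of -0.05, and among genes of the neuronal cytoskeleton and early neurons 20 of 29, also with -0.05.

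The growth factor pathway that the cultures differ in had small differences. Promoters of EGF and FGF ligands and receptors had a median of -0.08, with 22 of 28 below 0, and -0.01 without Neurog2. Egfr, the EGF receptor, was at 6.13, 6.27 and 6.38 in bFGF Neurog2 and 6.37, 6.30 and 5.93 in bFGF Neurog2+Hmgb2, against 6.57, 6.60 and 6.50 in EGF+bFGF Neurog2 and 6.38, 6.39 and 6.44 in EGF+bFGF Neurog2+Hmgb2. The highest bFGF library equalled the lowest EGF+bFGF library, and the difference was -0.25 ± 0.09 (adjusted p = 0.178) with Neurog2 viruses and 0.00 ± 0.10 without Neurog2. Among the FGF receptors, Fgfr1 differed by -0.07 ± 0.11 and Fgfr3 by 0.08 ± 0.11. The peak taken for Fgfr2, at an upstream start in an intron of Ctbp2, differed by -0.05 ± 0.10. Its nearest start was that of Ctbp2, at 0.318 kb, so the value cannot be assigned to Fgfr2. Hbegf, an EGF receptor ligand, differed by -0.25 ± 0.10, and Spry2, a feedback inhibitor of receptor tyrosine kinases, by -0.25 ± 0.09. The list of MAPK feedback and immediate early genes that holds Spry2 had a median of -0.01, with 12 above and 17 below 0. The promoter of Hmgb2 is not reported, because its peaks share sequence with the virus. Cell cycle genes had a median of 0.03, with 31 of 51 above 0.

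Fibroblast, meningeal and mural genes leaned the other way, with a median of 0.10 and 20 of 30 above 0, and -0.00 without Neurog2. Besides Six2, the peak shared by Zic1 and Zic4, zinc finger factors of the meninges and the posterior brain, had 6.21, 6.83 and 6.37 in bFGF Neurog2 and 6.37, 6.22 and 6.00 in bFGF Neurog2+Hmgb2, against 6.06, 6.10 and 5.88 in EGF+bFGF Neurog2 and 5.98, 5.86 and 5.82 in EGF+bFGF Neurog2+Hmgb2. A single bFGF library lay within the EGF+bFGF range, and the difference was 0.38 ± 0.11 (adjusted p = 0.104) with Neurog2 viruses and 0.31 without Neurog2. Col1a2, a collagen of fibroblasts, differed by 0.35 ± 0.15 with Neurog2 viruses and 0.40 ± 0.16 without Neurog2. Twist1, a mesenchymal factor, differed by 0.34 ± 0.12 with Neurog2 viruses. The markers Col1a1, Pdgfrb and Tbx18 differed by 0.02, 0.10 and 0.10 with Neurog2 viruses and by 0.01, -0.13 and 0.34 without Neurog2. Of 6 defining fibroblast and mural markers 4 had a promoter peak, all but Lum and Dcn, with a mean of 4.89 to 5.40 in bFGF and 4.85 to 5.20 in EGF+bFGF, the highest in bFGF Neurog2 replicate 2. Of the defining microglial and endothelial markers 1 of 5 each had a promoter peak, and of choroid plexus markers 0 of 3. Fewer cells of a type and less open chromatin per cell cannot be told apart in these bulk libraries, and the part of such cells in the results was not tested.

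**Figure D5:**
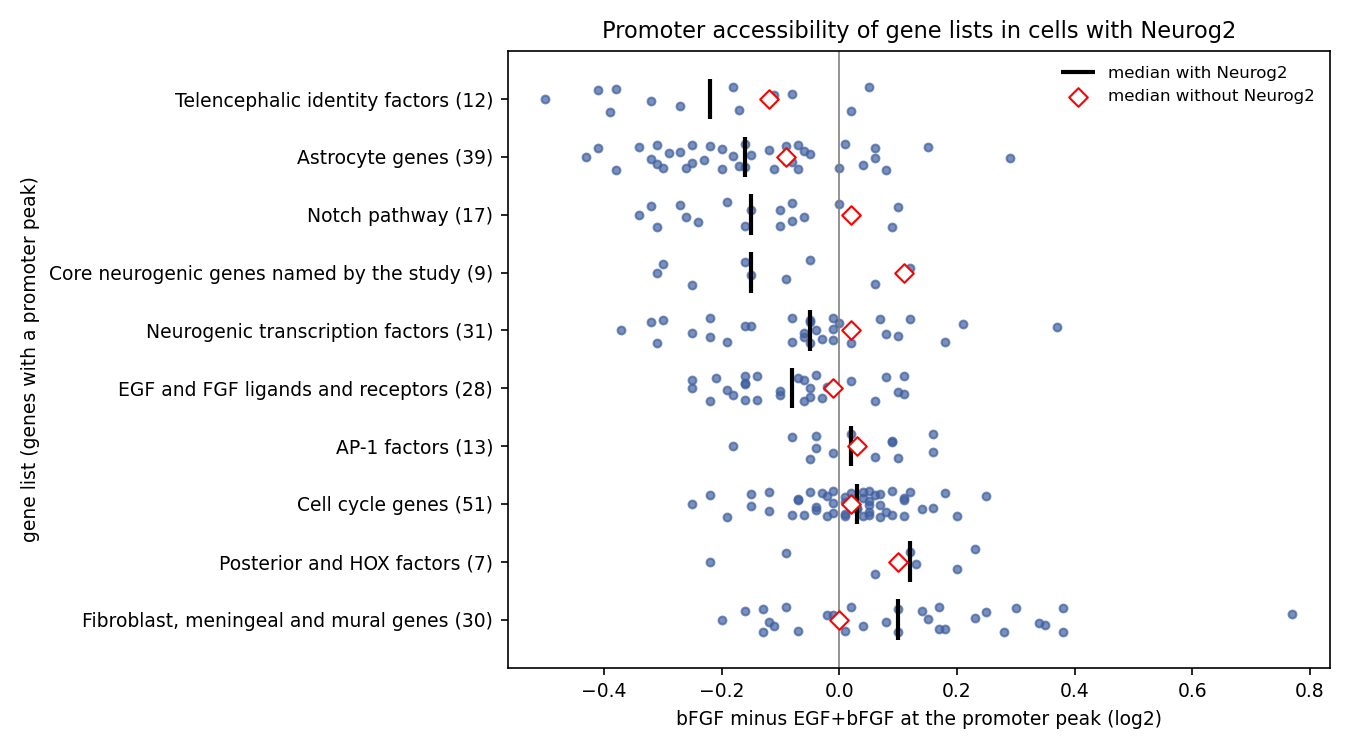
Culture difference (bFGF minus EGF+bFGF, log2, horizontal axis) at the promoter peaks of 10 gene lists in cells with Neurog2, with each point a gene, black bars the median of the list and red diamonds its median in cells without Neurog2. Telencephalic identity factors (median -0.22), astrocyte genes (-0.16), Notch pathway genes (-0.15) and core neurogenic genes (-0.15) lie mostly below 0, and fibroblast, meningeal and mural genes (0.10) mostly above, while no member other than Six2 was called.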

How the data were processed

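The comparison, the site sets and the gene lists were chosen with earlier results of these data known. Per the labels, the authors checked reads with FastQC, trimmed them with cutadapt, aligned them to mm10 with Bowtie2, called peaks per library with Genrich (mitochondrial reads and duplicates removed), merged the peaks and counted reads. The authors deposited regularized log2 values (rlog, DESeq2 1.36.0), which shrink weak peaks toward their mean and hold no counts, so depth per library is unknown and no interval from it can be given.

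Peaks were annotated with GENCODE vM21, and peaks sharing Neurog2 or Hmgb2 coding sequence were found with blastn 2.17.0 (E-value 1e-10). Differences were fitted with limma 3.58.1 (R 4.3.3; mean trend, Benjamini-Hochberg over all tested peaks), which was first tested on simulated data. The rule named up to 10 called peaks in each direction whose 6 and 6 libraries did not overlap, 1 per nearest gene, and up to 5 promoter peaks, plus list members and receptors. It was applied to the 25-library fit, a choice made after seeing that the 12-library fit called 1 site. Motifs were searched in the central 200 bp and, as an alternative, in whole peaks. Replicate numbers did not clearly pair the libraries over all peaks, so no block was used in the main fit, although so few libraries cannot exclude pairing. The replicate block of the alternative fits joined equal numbers across both cultures, so it does not cover an origin shared only within a culture. Results of some genes are not reported here.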

Additional observations from a re-analysis of the deposited data

Results flagged for a closer look

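Of 87 sets of 4 to 10 values looked at, 5 held a value far from the others by Dixon's test, where chance gives about 1 in 20, and 3 of the 5 were in bFGF libraries. In bFGF Neurog2 replicate 2, the peak 298.0 kb from Dab2 was at 5.08 (3.73 to 4.07 in the other bFGF libraries), the intronic peak of Phactr2 at 4.27 (4.94 to 5.18), and the mean over the 198 peaks that were lower in bFGF without overlap at 4.68 (4.91 to 5.01). In EGF+bFGF cultures, the Cdh4 intron was lowest at 4.08 in Neurog2+Hmgb2 replicate 1, and the Six2 promoter was highest at 6.17 in Neurog2+Hmgb2 replicate 3. The culture differences at these sites are given above with the library in and, for bFGF Neurog2 replicate 2, over all sites without it.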

How the results depend on the processing

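Over the 12 libraries with Neurog2, the count of peaks past the threshold was 1, and it was 2 with a replicate block, 2 with the replicate block and a GC content and width adjustment, 2 with the Neurog2 exon signal as a covariate (chosen after seeing the data), 262 with all 25 libraries in the fit, 754 with library weights (442 higher and 312 lower) and 0 at an adjusted p of 0.01. Other scalings, filters and priors left it at 1. Past 2-fold it was 0, and 1 with the replicate block, with or without the GC and width adjustment, 1 with all 25 libraries and 2 with library weights. Leaving out 1 of the 12 libraries at a time gave 0 to 1210 peaks in the 12-library fit and 0 to 2930 in the 25-library fit, and 0 to 12 and 0 to 11 past 2-fold. With Neurog2 alone the count was 0, and 31 in the 25-library fit, 2 with the replicate block and 0 to 1567 with 1 library left out (927 higher and 640 lower without bFGF Neurog2 replicate 1). For the difference between the viruses it was 0, and 1 with the replicate block and 0 to 1 with 1 library left out. With Neurog2+Hmgb2, and for the effect with minus without Neurog2, it was 0 in every fit run. The replicate numbers did not clearly pair the libraries over all peaks, although so few libraries cannot exclude pairing. The block joined equal numbers across both cultures, so it does not cover an origin shared only within a culture. Between the viruses of a culture, same-numbered libraries had correlations of 0.00743, 0.366 and -0.151 in EGF+bFGF and 0.0208, -0.474 and 0.159 in bFGF. Of 18 same-numbered pairs 4 had a correlation of deviations over 0.1 (-0.474 to 0.366), and 1 of 12 libraries matched its own number best. With the mean over all peaks within 100 kb in place of the promoter peak, the median was 0.04 for endothelial genes (-0.03 at promoters), 0.02 for extracellular matrix genes (-0.06) and 0.11 for microglia and immune genes (0.00); the other lists moved by less than the spread between libraries. Of 1730 alternative values for the 47 entries of sites and genes named by rule, 10 changed sign and no called site reversed. For the called sites, their choice in these same libraries largely fixes this. The causes were not tested. Depth is unknown, and rlog values limit what weak peaks can show.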

Other observations

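Some peaks varied between libraries of the same group far more than they did between cultures. Peaks with a large standard deviation within groups, chosen after their values were seen, lay near Taf9b (2.26), at the promoters of Sox2 (2.14) and Pgk1 (2.13), and at the Gt(ROSA)26Sor locus nearest Setd5 (2.10), against a median of 0.21 over all peaks. Sox2, a factor of neural progenitors, was at 12.07, 8.60 and 8.51 in bFGF Neurog2 and 11.36, 8.98 and 7.06 in bFGF Neurog2+Hmgb2, against 8.10, 11.53 and 8.08 in EGF+bFGF Neurog2 and 7.33, 11.74 and 8.04 in EGF+bFGF Neurog2+Hmgb2. The 4 libraries above 11 had also the 4 highest values at the Neurog2 exon peak (15.9, 15.0, 15.6 and 16.1). They were replicate 1 of both viruses in bFGF and replicate 2 of both viruses in EGF+bFGF. Whether same-numbered libraries of a culture shared an origin was not tested, and the fits treat them as independent. Libraries without Neurog2 spanned 7.18 to 12.36 at Sox2. The culture difference there was 0.29 ± 0.77, and the origin of this spread was not tested.

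The 52 peaks on the Y chromosome averaged 4.33, 4.50 and 4.67 in bFGF Neurog2 and 4.53, 5.66 and 5.18 in bFGF Neurog2+Hmgb2, against 5.48, 4.73 and 4.60 in EGF+bFGF Neurog2 and 5.00, 4.90 and 5.42 in EGF+bFGF Neurog2+Hmgb2. The cultures overlapped, and the median difference of these peaks was -0.157, against 0.00 for the 852 peaks of the X chromosome.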
